A study of Mus musculus with 12 samples.

Results

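The regions described here are the 459 mouse genome regions with the densest H3K9me3 signal per kilobase in embryonic stem cells. They were chosen among the 22954 listed regions on chromosomes 1 to 19 that are 1000 to below 5000 bp wide, out of 68291 regions in all. They were selected on density, which is the average log2 CPM of a region minus the log2 of its width in kilobases. CPM are counts scaled within a library, by a total that is not given in the sources used here. The CPM of all 68291 regions summed to 1.08e+06, so CPM are not read here as shares of all reads of a library. The 459 regions are the top 2% by density. Their density ran from 21.0 to 503 CPM per kb. The choice therefore rests on the average signal of the same table that gives the fold changes, and what density and width show is a description with no test.

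Chromatin immunoprecipitation and sequencing (ChIP-seq) was run on embryonic stem cells that were Tex19.1+/-, carrying 1 intact allele, or Tex19.1-/-, carrying none, with 3 immunoprecipitated and 3 input libraries each, 12 in all. Both genotypes are on a 129/Ola background, derive from the E14Tg2a line, were grown in serum with leukaemia inhibitory factor and were used at passages 12 to 20. For 6 of the 12 libraries the labelled genotype field and the title contradict each other, and titles were used. How many clones stand behind a genotype is not given in the sources used here. The values come from the authors' deposited table of 1 comparison, which has no column of a single library, so neither single libraries nor their spread could be examined. Whether a positive sign means more signal in Tex19.1-/- or in Tex19.1+/- cells is not stated, so changes are given by sign, and neither is the use made of input.

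H3K9me3 is the histone mark of constitutive heterochromatin. In embryonic stem cells the methyltransferase SETDB1, brought to DNA by KRAB zinc finger proteins and TRIM28, places it over retrotransposons, imprinted control regions and clusters of zinc finger genes. The SUV39H enzymes place it over satellite repeats near centromeres. Tex19.1 is a mammal-specific gene active in germ cells and pluripotent cells, where it is known for restraining retrotransposons.

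Few of the densest regions lay at gene starts. A window from 250 bp before to 50 bp after a RefSeq gene start was overlapped by 8 of the 459 (1.74%), against 1.75% of the other 22495 regions of the same width range. RefSeq has 12 promoter sequences, of 10 genes, for these 8 regions. The 250 bases before the start of 4 of these genes are shown, as examples of CpG-rich and CpG-poor starts that lie wholly inside a region of densest H3K9me3, as all 12 do. These 4 were chosen after their values were seen. They come from RefSeq on GRCm38.p6, run 5′ to 3′ on the strand of the gene, and each CpG is in capitals. Gm51701, a long noncoding RNA gene, is at chr9:123924898-123925147 (plus strand), and Vmn2r29, a vomeronasal receptor gene, at chr7:7278290-7278539 (minus strand). Duxf3, of the Dux family that drives the 2-cell-stage programme, is at chr10:58233090-58233339 (minus strand). Catsper3, which encodes a subunit of the sperm calcium channel, is at chr13:55784329-55784578 (plus strand).
Gm51701: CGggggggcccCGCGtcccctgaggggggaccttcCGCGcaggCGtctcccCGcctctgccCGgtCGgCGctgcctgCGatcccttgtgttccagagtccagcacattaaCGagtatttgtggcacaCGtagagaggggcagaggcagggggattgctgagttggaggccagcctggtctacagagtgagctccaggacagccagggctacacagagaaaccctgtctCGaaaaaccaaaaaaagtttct
Vmn2r29: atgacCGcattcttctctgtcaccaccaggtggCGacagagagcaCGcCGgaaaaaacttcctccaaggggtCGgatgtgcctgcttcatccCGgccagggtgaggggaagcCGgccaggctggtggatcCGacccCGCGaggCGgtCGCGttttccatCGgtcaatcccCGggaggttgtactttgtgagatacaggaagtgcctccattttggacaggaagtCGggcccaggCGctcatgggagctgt
Duxf3: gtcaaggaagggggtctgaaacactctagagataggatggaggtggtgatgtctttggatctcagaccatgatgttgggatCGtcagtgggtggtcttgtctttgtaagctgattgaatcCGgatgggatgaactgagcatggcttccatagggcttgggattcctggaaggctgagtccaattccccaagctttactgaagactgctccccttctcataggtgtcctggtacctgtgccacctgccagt
Catsper3: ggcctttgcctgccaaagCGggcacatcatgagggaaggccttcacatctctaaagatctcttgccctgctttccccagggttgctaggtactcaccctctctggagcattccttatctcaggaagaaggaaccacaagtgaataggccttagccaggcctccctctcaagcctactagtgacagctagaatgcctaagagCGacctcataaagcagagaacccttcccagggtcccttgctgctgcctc

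The windows differed in CpG content. The 250 bases before the start held 17 CpG at Vmn2r29 and 14 at Gm51701, with an observed to expected ratio of 0.74 and 0.59. They held 2 each at Duxf3 and Catsper3, with ratios of 0.13 and 0.11. Over the 12 windows the count ran from 1 to 17 with a median of 5.5, between the median of 3 over 437 windows met by other regions of the width range and that of 6 over all 32851 windows. At least 10 CpG were found in 5 of the 12 (41.7%), in 14.4% of the 437 and in 37.8% of all windows. These 5 include the window of Fv1 and both windows of Miip, which overlap within the same region, so the 12 are not independent. The hexamer TGCCGC, which the imprinting factor ZFP57 is known to bind, was searched on both strands and was present in 1 of the 12 windows, at Miip, against 8.68% of all windows. The signal at these 8 regions was from 21.7 to 114 CPM per kb. It was 114 at Gm51701, 31.4 at Vmn2r29 and 21.9 at Duxf3. Another of the 8 covers the starts of Miip and of Fv1, a gene derived from a retroviral gag sequence that restricts murine leukaemia virus, with 21.7 CPM per kb. Of the 8 regions 4 were positive and 4 negative, and 0 were called, where 0.281% of all regions were. In the authors' deposited table the log2 fold changes were -0.18 at Gm51701 (derived error 0.07), -0.07 at Vmn2r29 (0.16), -0.08 at Fv1 (0.16) and -0.05 at Duxf3 (0.11). The positive ones in the authors' deposited table were 0.02 at Catsper3 (0.16) and, all on chromosome 11, 0.26 at Gm12298 (0.11), 0.25 at LOC666331 (0.10) and 0.13 at Gm34502 (0.11). The derived error is a standard error, the log2 fold change over the normal deviate of its p-value, or the median of regions of like signal where that deviate is below 1, so it carries the assumptions of the authors' test.

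The density of the chosen regions was uneven, with a narrow body and a long tail. The median was 23.0 CPM per kb and the central 50% lay between 21.7 and 25.7, against a median of 12.3 for the other regions of the width range. At least 50 CPM per kb was reached by 12 regions and at least 100 by 4. The densest region held 3.74% of the summed CPM of the 459 in 0.198% of their length, and the 10 densest held 9.45%. The whole set held 2.61% of the CPM of the table in 1.28% of its length. Widths ran from 1007 to 4997 bp with a median of 2021 bp. At the lower edge, the 3 regions just inside the threshold had 20.96, 20.96 and 20.95 CPM per kb and the 3 just outside 20.95, 20.95 and 20.94, so the limit cuts through a continuous range.

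**Figure D1:**
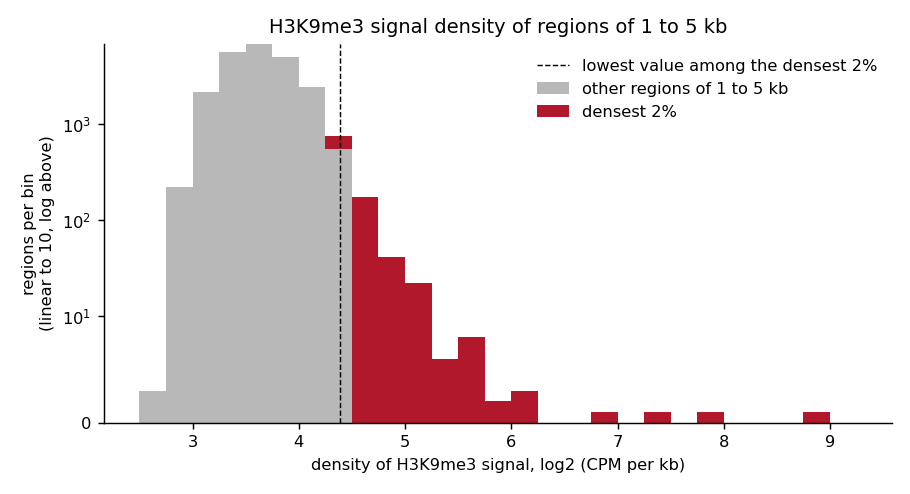
Number of autosomal regions of 1 to 5 kb (vertical axis, linear to 10 and logarithmic above) by density of H3K9me3 signal (horizontal axis, log2 CPM per kb), with the densest 2% in red and the lowest of them as a dashed line. The tail runs to 503 CPM per kb, and 12 regions reach 50 CPM per kb.

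The densest region lay in Sfi1, which encodes a centrin-binding protein of the centrosome (chromosome 11, 3191908 to 3194008, mm10). It had 503 CPM per kb. The second, with 240 CPM per kb, lay between genes on chromosome 14 (19415925 to 19417182), 10833 bp from Gm9637. The next 2 lay close together near the end of chromosome 9, 24629 and 35947 bp from the chemokine receptor gene Ccr1. One of them (123935341 to 123937497) had 163 CPM per kb, and the other, over the start of Gm51701 (123924442 to 123926179), had 114. The fifth lay in Gm42346 on chromosome 4 (145445652 to 145446902) with 75.4 CPM per kb. Rank 6 was near Prl2c3, a gene of the placental prolactin family, on chromosome 13 (12829012 to 12832315, 70.1 CPM per kb). Rank 7 lay in the immunoglobulin heavy chain locus Igh on chromosome 12 (115616801 to 115617876, 67.4 CPM per kb). Rank 8 was 18305 bp from Mup17, a major urinary protein gene (chromosome 4, 61571028 to 61573624, 60.1 CPM per kb). Rank 9 lay far from genes on chromosome 17 (54759083 to 54761791, 55.8 CPM per kb). The last of the 10 overlapped the zinc finger gene Zfp600 and the pseudogene Vmn2r-ps17 (chromosome 4, 146167558 to 146168624, 52.9 CPM per kb).

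Several of these places hold families of like-named genes. A family was counted where at least 3 genes with the same symbol stem lay within 250 kb, a measure added after the names were seen. This was so for 143 of the 459 regions (31.2%, 95% Wilson interval 27.1 to 35.5) and for 16.2% (15.7 to 16.7) of the other regions of the width range. Overlap with a pseudogene was found in 33 (7.19%, interval 5.16 to 9.92) against 3.40% (3.17 to 3.65). Within the set, the share with a family was 38.3% in the densest 115 and 26.3% in the least dense 114, and the share over a pseudogene 10.4% and 2.63%. The intervals assume independent regions, although neighbouring ones are related. The rule places 2% of regions in the set. Among single families, picked for high shares, the densest included 10 of 59 regions (16.9%) around the Mup genes. They also included 5 of 10 around the chitinase-like Chil genes and 3 of 5 around the lipoxygenase Alox genes, these 3 all in Alox15. Shares were lower around vomeronasal (Vmn, 3.96%) and olfactory (Olfr, 3.02%) receptor genes, the families with most dense regions. Around the Scgb genes the share was 0.962%. How many copies of each sequence the genome of these cells holds, and how reads that match several copies were placed, was not tested.

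Overlap with genes as a whole was no more frequent than elsewhere. A gene body was overlapped by 142 of the 459 (30.9%, interval 26.9 to 35.3) against 35.0% of the other regions. For protein-coding genes the shares were 18.7% and 23.2%, and for long noncoding RNA genes 4.36% and 9.29%. Protein-coding genes with such a region outside the families include Mepe, a bone matrix protein, Wnt3, a signalling ligand, and Itgb5, an integrin subunit. Their densities were 30.4, 22.6 and 27.1 CPM per kb.

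Dense regions had another listed H3K9me3 region nearby more often than other regions did. Another listed region lay within 5 kb of 356 of the 459 (77.6%, interval 73.5 to 81.1), against 57.2% (56.6 to 57.9) of the other regions. The 595 distinct neighbours that are not among the 459 had a median of 12.6 CPM per kb, close to the width range as a whole, and 355 of them were shorter than 1000 bp. Of the 459, 128 (27.9%) lay in 51 groups of 2 or more that were at most 50 kb apart, and 331 stood alone. The largest group had 7 regions over 66.4 kb of chromosome 13 (12824188 to 12890595), with 32.6 to 70.1 CPM per kb. Its nearest named gene was Prl2c3, at 24095 bp or more. Groups of 5 lay at the cytochrome P450 pseudogene Cyp3a63-ps on chromosome 5, with 23.7 to 48.5 CPM per kb, and in and beside the zinc finger gene Zfp936 on chromosome 7, with 21.0 to 31.4. Groups of 4 lay between H60b and Raet1d, genes of ligands of the natural killer receptor NKG2D, on chromosome 10, and on chromosome 6 (130809953 to 130924117).

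Chromosome 11 had the largest share of its regions in the set. There 42 of 1063 regions (3.95%, interval 2.94 to 5.30) were among the densest, beside the 2% that the rule fixes over all. The share was 2.46% on chromosome 16, 2.53% on chromosomes 4 and 13, and 0.784% (4 of 510) on chromosome 19. The other regions of chromosome 11 also had a raised median log2 fold change (0.27). Those of chromosome 16 had the same median (0.27), with an interval of 1.63 to 3.69 around its share. The average signal that chose the members of both chromosomes includes that difference between genotypes. Its part in the count was not tested. The first 10 Mb of a chromosome, next to the centromere, held 11.1% of the densest regions and 9.59% of the others.

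**Figure D2:**
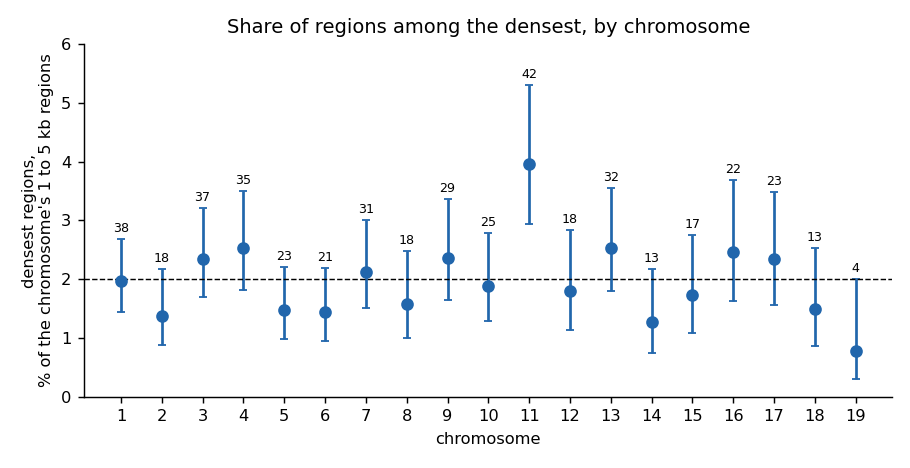
Densest regions as a percentage of the 1 to 5 kb regions of each autosome (points, with 95% Wilson intervals) and their number (printed above). The dashed line is the 2% that the rule fixes over all autosomes. Chromosome 11 is at 3.95% and chromosome 19 at 0.784%.

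Between the genotypes, most of the densest regions differed little. In the authors' deposited table all but 2 of the 459 log2 fold changes lay within 0.5 of 0 (99.6%), with a range from -0.61 to 0.45. Among other regions of the width range 95.9% lay within 0.5, and among all regions 82.9%. The median derived error was 0.13 for the 459, 0.23 for those others and 0.34 for all regions, so the shares differ along with precision. The FDR in the authors' deposited table was below 0.05 in 5 regions (1.09%, interval 0.466 to 2.52), 1 positive and 4 negative. Over all regions 0.281% were called, 0.192% positive and 0.0893% negative. At an FDR below 0.01 the count was 3, with 0.148% over all regions. Precision depends on signal, and among other autosomal regions with at least the lowest signal of the set 1.35% were called, which lies inside that interval. An unadjusted p-value below 0.05 was found in 83 of the 459 (18.1%), against 4.74% over all regions and 12.1% of those with at least that signal.

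The called regions lay at 5 separate places. The 163 CPM per kb region near Ccr1 on chromosome 9 stood at -0.32 on the log2 scale (derived error 0.05, FDR 1.22e-06 in the authors' deposited table). A region of 7243 bp lies between it and the dense region at Gm51701 and is too wide for the set. It had 151 CPM per kb, and the authors' deposited table lists it at -0.30 with an FDR of 2.56e-18, so these 3 regions were negative. A region of 361 bp on the far side was at 0.55 in the authors' deposited table (derived error 0.69). In Tmem267 on chromosome 13 (119608990 to 119611295, 47.3 CPM per kb) the authors' deposited table gave -0.36 (derived error 0.09, FDR 0.0339). A second dense region in Tmem267 (119595536 to 119600533) was listed at -0.24 in the authors' deposited table (FDR 0.175), and the 2 further regions within 20 kb were negative too, at -0.17 and -0.13.

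The most negative of the 459 lay on chromosome 10 (117257512 to 117260732, 25.7 CPM per kb), 16809 bp from the lysozyme gene Lyz2. The authors' deposited table gave -0.61 (derived error 0.10, FDR 1.13e-05), and both other regions within 20 kb were negative there as well (-0.57 and -1.80, FDR 1 and 0.227). On chromosome 15, 17429 bp from Mucl2 (103916741 to 103920107, 23.5 CPM per kb), the authors' deposited table gave -0.41 (derived error 0.11, FDR 0.0419). The 4 other regions within 20 kb ranged there from -0.39 to 0.21. The positive call was the only one. It lay over Prnp, the prion protein gene, and Prn on chromosome 2 (131930613 to 131935443, 24.7 CPM per kb), where the authors' deposited table gave 0.45 (derived error 0.09, FDR 0.000278). All 4 other regions within 20 kb were positive, from 0.58 to 0.92, and 1 of them was called (0.65, FDR 0.00339).

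**Figure D3:**
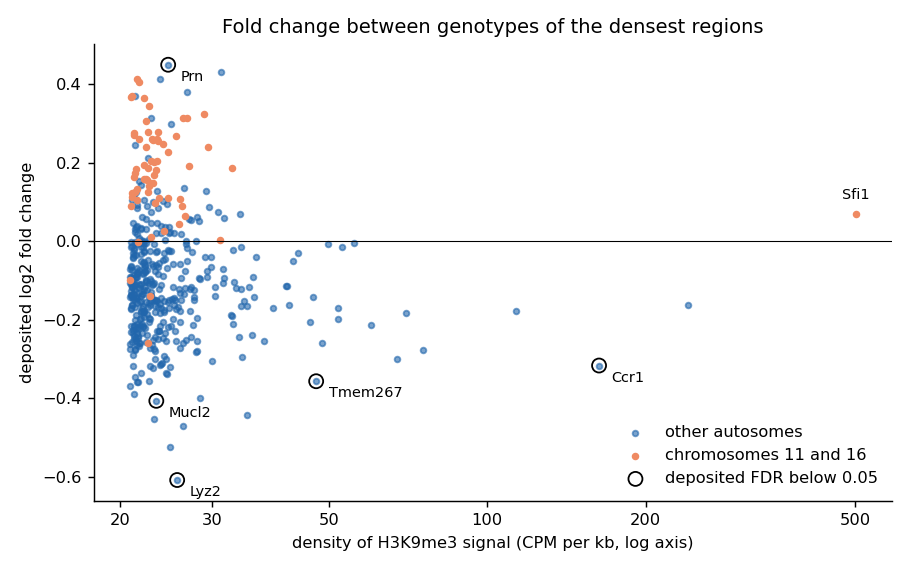
Deposited log2 fold change (vertical axis) of each of the 459 densest regions against its density (horizontal axis, CPM per kb, logarithmic). Circles mark the 5 regions with a deposited FDR below 0.05, labelled by the nearest named gene, and orange points lie on chromosomes 11 and 16. Most blue points are below 0, and the region of 503 CPM per kb at Sfi1 is at 0.07.

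Derived errors were smallest among the 10 densest at the first 3 regions. At Sfi1 the authors' deposited table gave 0.07 (derived error 0.03, FDR 0.822), and at the second region, on chromosome 14, -0.16 (0.05, FDR 0.279). Among ranks 5 to 8 the authors' deposited table had -0.28 at Gm42346, -0.18 near Prl2c3, -0.30 at Igh and -0.21 near Mup17, with FDR values from 0.365 to 0.521. Ranks 9 and 10 were at -0.01 and -0.02 in the authors' deposited table, each with an FDR of 1. Of the 10 densest regions 9 were therefore negative, and the positive one was on chromosome 11.

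Small negative values were the rule over the whole set. The authors' deposited table has a negative sign for 338 of the 459 (73.6%), and the median over all 459 is -0.11, against 54.6% and -0.03 for the other regions of the width range and 50.8% and -0.01 for all regions. The sign divided by chromosome. On chromosomes 11 and 16, where positive values also prevail among the other regions of the width range, 60 of 64 dense regions were positive, with a median of 0.18. On the other autosomes 334 of 395 (84.6%) were negative, with a median of -0.13, against 58.8% and -0.05 for the other regions of the width range there. The table gives no value by library, so whether the shared sign exceeds the spread between libraries cannot be told.

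Over bands of the whole width range, the median fold change fell with density in both sets of chromosomes. Outside chromosomes 11 and 16, the median log2 fold change in the authors' deposited table was 0.01 in the least dense 25% of the width range, -0.03 between percentiles 25 and 50 and -0.05 between 50 and 75. It was -0.08 between percentiles 75 and 90, -0.09 between 90 and 95, -0.12 between 95 and 98 and -0.13 in the densest 2%. The share of negative regions rose over the same bands from 49.0% to 84.6%. On chromosomes 11 and 16 the median went from 0.40 in the least dense 25% to 0.18 in the densest 2%, so that dense regions were lower than sparse ones there too, though above 0. The share of negative regions did not rise there (9.12% in the least dense band and 6.25% in the densest). Within the 459, with chromosomes 11 and 16 not separated from the others, no such order was seen. From the densest to the least dense of 4 nearly equal parts the medians were -0.12, -0.11, -0.10 and -0.11, with 77.4%, 69.6%, 71.3% and 76.3% negative. Because a CPM is relative within a library, such a pattern describes dense against sparse regions and gives no absolute gain or loss.

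**Figure D4:**
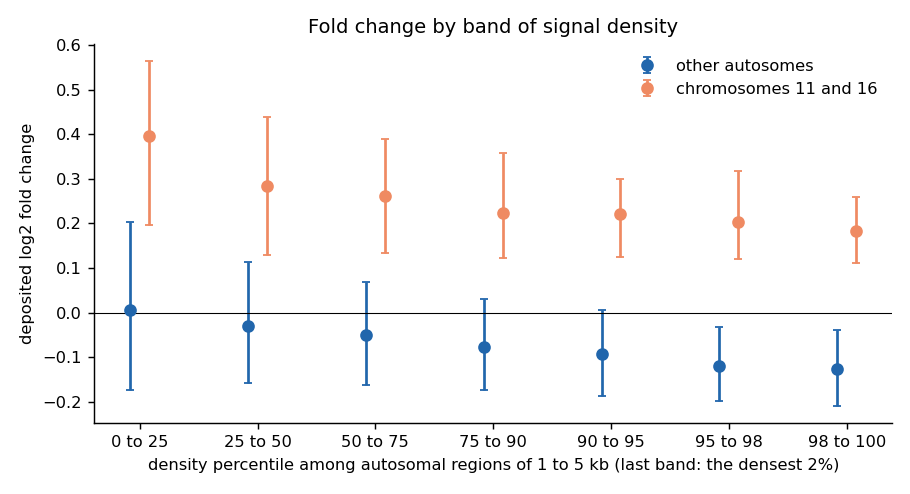
Median deposited log2 fold change (points, with the 25th and 75th percentiles as bars) of autosomal regions of 1 to 5 kb in 7 bands of signal density, for chromosomes 11 and 16 (orange) and the other autosomes (blue). Medians fall from 0.01 to -0.13 on the other autosomes and from 0.40 to 0.18 on chromosomes 11 and 16.

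Dense regions also have more total signal than others. Each member was set against other autosomal regions in the same log2 CPM bin of 0.5, which are wider and less dense. By log2 fold change, 281 of 458 regions (61.4%) were below the median of like signal, by a median difference of -0.05 (the region at Sfi1 had too few of like signal to be compared). With members and like-signal regions both taken outside chromosomes 11 and 16, the median difference was -0.05 and 262 of 395 (66.3%) lay below. Within those 2 chromosomes it was -0.07 and 44 of 63 (69.8%) lay below. In the bin from 5 to 5.5, outside chromosomes 11 and 16, 99 dense regions had a median of -0.15 and 88.9% were negative. The 2602 other regions of that bin had -0.07 and 65.9%, at a median density of 13.6 CPM per kb against 23.1. There the medians were -0.12 and -0.05 in the bin from 4.5 to 5 and -0.13 and -0.07 from 5.5 to 6. They were -0.11 and -0.09 from 6 to 6.5. Dense regions were thus lower in each of these bins from 4.5 to 6.5 outside chromosomes 11 and 16, with the medians closest in the last. Over all autosomes, with chromosomes 11 and 16 mixed in, the bins from 6 to 6.5 and from 6.5 to 7 had nearly equal medians (-0.07 and -0.07, then -0.09 and -0.08). In the bin from 7 to 7.5 over all autosomes, with 10 dense regions, they were -0.16 and -0.09. The lowest bin, from 4 to 4.5 over all autosomes, went the other way. There 6 dense regions had a median of 0.08, and 5959 others had -0.02. Input signal by density was not analysed here.

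Of the 51 groups, 33 were all negative and 4 all positive. Most dense regions are negative whether grouped or not, so this count shows nothing particular to groups. All 7 regions of the Prl2c3 group were negative in the authors' deposited table, from -0.30 to -0.14, with a median derived error of 0.11. So were the 5 other listed regions inside that stretch. The 5 at Cyp3a63-ps were negative, from -0.26 to -0.06. Of the 5 at Zfp936, 4 were negative and 1 positive, from -0.20 to 0.09, in the authors' deposited table. The 3 regions in Alox15, a lipoxygenase gene on chromosome 11, were positive, from 0.04 to 0.24. None of these regions was called. Regions of a group can share sequence and are not replicates of one another.

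**Figure D5:**
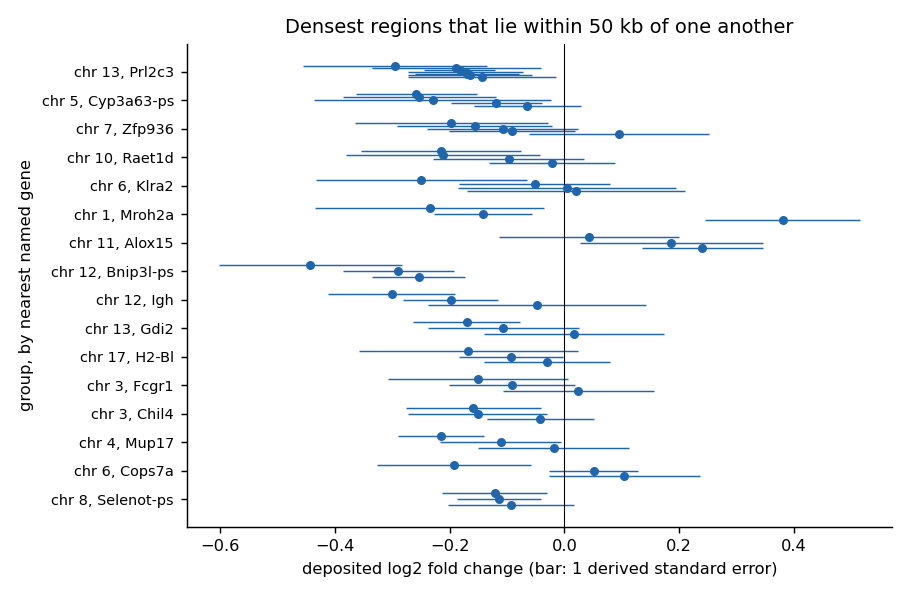
Deposited log2 fold change (horizontal axis) of each dense region in the 16 groups of 3 or more that lie at most 50 kb apart, with 1 derived error as a bar. Groups are named by chromosome and nearest named gene. The 7 regions of the Prl2c3 group are all below 0 and the 3 in Alox15 all above 0.

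Gene lists were then matched within 5 kb of a gene body. Zinc finger genes, taken by symbol, had 11 of the 459 regions (2.40%, interval 1.34 to 4.24) against 0.609% of the other regions. Of the 11, 10 were negative and 0 called, and their median in the authors' deposited table was -0.13, beside -0.01 over all regions, of which 0.281% were called. The dense regions outside chromosomes 11 and 16 as a whole also have a median of -0.13, with 84.6% negative, so neither these signs nor those of the vomeronasal list set a list apart. The densest were at Zfp600 (52.9 CPM per kb, -0.02) and, at 2 places, at Zfp982 (34.1 and 29.0 CPM per kb, -0.12 and -0.04 in the authors' deposited table). Vomeronasal receptor genes, which serve the detection of pheromones, had 10 regions (2.18%, against 0.805%). Of these 9 were negative and 0 called. The region at Vmn2r-ps17 is the one at Zfp600, and that near Vmn2r-ps19 is one at Zfp982. The densest besides these was at Vmn2r29. Olfactory receptor genes had 8 regions (1.74%, against 0.822%), 4 positive and 4 negative, with 0 called. The densest were 3579 bp from Olfr1257 (24.9 CPM per kb, 0.02 in the authors' deposited table), 3329 bp from Olfr1008 (23.6, 0.05) and at Olfr400-ps1 (22.8, 0.14).

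Clustered protocadherin genes, which give neurons distinct surface identities, had 2 dense regions, both inside the Pcdha cluster on chromosome 18. At 28.0 and 23.8 CPM per kb, they were listed at -0.28 and -0.23 in the authors' deposited table (derived errors 0.14 and 0.13, FDR 1 for each). The 2-cell-stage list also had 2, both at Duxf3. One overlapped the gene, and the other lay 2829 bp away with 31.5 CPM per kb and 0.06 in the authors' deposited table. The list of imprinted genes had 1, in Cdh15 (chromosome 8, 122863241 to 122867854), with 23.6 CPM per kb and -0.15 in the authors' deposited table (derived error 0.09, FDR 1). Imprinted genes had 37 of the other regions of the width range. Of these, 4 were called, where 0.422% of all other regions of the width range were. The list thus held 0.218% of the dense regions and 0.164% of the others, which sets it neither above nor below this density. No dense region lay within 5 kb of a gene on the lists of histone genes, germline and meiosis genes, H3K9 methylation factors, pluripotency genes and fibroblast genes, which had 6, 15, 4, 2 and 3 of the other regions. The rule takes only 2% of regions, so with counts this small the absence says nothing about these lists.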

How the data were processed

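ChIP-seq for H3K9me3 was deposited as 1 table of a comparison between the genotypes. Per the file headers it gives each region's position, log2 fold change, average log2 CPM, p-value and FDR, made by the authors. Tools listed, without a role, in the submitters' processing notes are edgeR, HOMER 4.8, Bowtie2 2.2.6 and bedtools 2.25.0, with build mm10. How regions were called, input was used and libraries were scaled is not given in the sources used here. Depth by library was not analysed here. Start and end are printed as deposited.

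The members and lists were chosen with earlier results of these data known. No filter on signal was applied, and all members have values. Recomputing the FDR by Benjamini-Hochberg from the p-values moved none by more than 3.2e-05. No test was run beyond the authors'. Wilson intervals (95%) cover counting of regions. For medians, 95% intervals came from ranked values by the binomial distribution and served only to judge alternative values. They ran from -0.120 to -0.091 for the median log2 fold change and from -0.063 to -0.032 for the difference from like signal. They treat regions as independent and do not cover the spread between libraries. Genes came from RefSeq for GRCm38.p6, the assembly mm10 names. Regions named were the 10 densest, those called, up to 3 per list, those at the threshold and the largest group. Other regions, and the group members, were chosen after their values were seen. Python 3.11.15, pandas 2.3.3 and scipy 1.17.1 were used. The adjustment, derived error and like-signal difference were tested on simulated data with normal errors. Such data cannot show whether a normal deviate suits the authors' p-values.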

Additional observations from a re-analysis of the deposited data

How the results depend on the processing

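Of 41 alternative values, 30 stayed within the interval of the reported value (for counts, within 1.5 times). None of the medians and median differences changed sign, and the counts and percentages among the 41 cannot do so. The 5 calls among 459 became 3 at a deposited FDR below 0.01, where 0.148% of all regions were called. They became 3 under Holm adjustment (near Ccr1, near Lyz2 and at Prnp) and 9 with the adjustment run over the width range only. The shares that Holm and the width-range adjustment call over all features were not analysed here. At a deposited FDR below 0.05 the calls were 12 of 1148 among the densest 5%. They were 2 of 393 when the rule was limited to regions below 3000 bp. Of all regions 0.281% were called at that FDR. The median log2 fold change of -0.11 became -0.13 without chromosomes 11 and 16. The difference from like signal of -0.046 became -0.068 below 3000 bp. Overlap with genes rose to 44.0% when gene bodies were extended by 5 kb. The share with a region nearby was 72.8% among the densest 5%, 35.5% within 1 kb and 86.7% within 10 kb. Keeping only the densest region of each group, an alternative added after seeing the data, moved none of the 6 results. No paired analysis was possible because the table has no column of a single library, and for the same reason no replicate could be left out. Depth was not analysed here.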
